A study of Mus musculus with 12 samples.

Results

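The p53 pathway was followed through 10 of its genes in mouse ear fibroblasts kept on soft or stiff alginate gels that either held or relaxed stress. The genes were Trp53, its inhibitor Mdm2, and the p53 targets Ccng1, Sesn1, Phlda3, Eda2r, Bax, Bbc3, Trp53inp1 and Zmat3. They were chosen by name, with earlier results of these data known. All 10 were present among the 33246 genes of the count table and among the 14542 genes with enough counts to be tested. Primary fibroblasts from the ears of 1-month-old C57BL/6 mice of both sexes were used at passage 2. For each sample 500000 cells were seeded on an RGD-coupled alginate gel and collected after 48 h, and poly(A) RNA was sequenced. The 4 groups of 3 samples were 2 kPa Elastic, 20 kPa Elastic, 2 kPa Viscoelastic and 20 kPa Viscoelastic. Elastic gels were crosslinked covalently and showed little stress relaxation, whereas viscoelastic gels were crosslinked ionically and relaxed slowly, so that gel type and crosslinking chemistry cannot be told apart in these groups. All groups shared the culture medium, the passage and the time on the gel.

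The protein p53 is a transcription factor that is held at a low level in unstressed cells by the ubiquitin ligase Mdm2, itself encoded by a p53 target gene. DNA damage and other stress release p53 from Mdm2, and p53 then raises genes that stop the cell cycle, tune growth signalling, repair DNA or start apoptosis. Much of this control acts on the p53 protein, which RNA counts do not measure, so that the targets carry the readable part of the response at the RNA level.

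Because p53 binds DNA at pairs of a short motif, the promoters of the genes are shown before their values. RefSeq promoter windows on the GRCm38.p6 build, each from 250 bases before to 50 bases after a transcription start, matched 8 of the 10 genes and gave 11 windows. Windows for Zmat3 and Trp53inp1 were not used here. The p53 decamer, the 10-base unit whose consensus is its own reverse complement and of which a full site holds a pair, was searched without mismatch on both strands. It occurred in 1 window each of Trp53, Mdm2, Ccng1, Sesn1 and Bax, that is in 5 of 11 windows, and in 8.36% of all 32851 windows. A full site of 20 bases with no spacer and at most 2 mismatches was found in 1 window, that of Ccng1, and in 0.798% of all windows. That site lay at chr11:40755462-40755481 on the minus strand, 195 to 176 bases before the start, and is given with its 1 mismatched base in lower case.
Ccng1 full site: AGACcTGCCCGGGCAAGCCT
The decamers of Trp53 (chr11:69580284-69580293, plus strand) and Bax (chr7:45467090-45467099, minus strand) read as follows.
Trp53 decamer: GGACTTGCCC
Bax decamer: AGGCAAGCTT
For Ccng1, which held the full site, and for Mdm2 and Sesn1, which passed the test in more than 1 comparison, the 250 bases before the start are printed with the decamer in capitals. They cover chr11:40755287-40755536 on the minus strand for Ccng1, chr10:117710759-117711008 on the minus strand for Mdm2, and chr10:41887189-41887438 on the plus strand for the downstream of the 2 Sesn1 starts.
Ccng1: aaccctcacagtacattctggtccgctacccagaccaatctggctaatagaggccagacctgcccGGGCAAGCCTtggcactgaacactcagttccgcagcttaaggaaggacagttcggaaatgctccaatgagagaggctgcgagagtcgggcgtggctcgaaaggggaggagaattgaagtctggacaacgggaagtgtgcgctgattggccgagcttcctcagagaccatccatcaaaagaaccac
Mdm2: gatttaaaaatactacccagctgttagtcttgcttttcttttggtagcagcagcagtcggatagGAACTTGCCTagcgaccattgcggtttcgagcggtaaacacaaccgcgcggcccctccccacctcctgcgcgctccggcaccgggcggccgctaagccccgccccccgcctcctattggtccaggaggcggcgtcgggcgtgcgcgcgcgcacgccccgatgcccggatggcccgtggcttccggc
Sesn1: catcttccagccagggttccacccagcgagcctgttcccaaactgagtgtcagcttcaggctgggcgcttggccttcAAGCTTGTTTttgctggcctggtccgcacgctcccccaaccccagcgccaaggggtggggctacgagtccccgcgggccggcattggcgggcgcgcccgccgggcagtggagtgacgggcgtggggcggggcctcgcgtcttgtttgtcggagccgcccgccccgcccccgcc
These matches describe letters in the windows only. The best known p53 sites of Mdm2 lie in its first intron, outside the window, and a window without a match says nothing about binding.

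Counts summed to 36626221 to 43612804 per sample, and values are given as CPM, the count of a gene relative to the library total scaled by TMM. Mitochondrial genes took 1.77% to 3.34% of counts. As a check on the labelled cell type, all 11 fibroblast markers were detected in every sample, led by Fn1 at 30703 to 56695 CPM and Col3a1 at 6387 to 8629 CPM. Keratinocyte, endothelial, immune and melanocyte lists summed to at most 9.01 CPM in any sample. Chondrocyte markers were high in every group, with Col2a1 at 2396 to 3471 CPM and Acan at 854 to 1611 CPM while Matn1 stayed at or under 0.187 CPM. The summed chondrocyte list ran from 4887 to 6331 CPM on 2 kPa Elastic, 4439 to 4537 CPM on 20 kPa Elastic, 4832 to 6229 CPM on 2 kPa Viscoelastic and 4910 to 6309 CPM on 20 kPa Viscoelastic gels. Of the Schwann cell markers, S100b, which cartilage cells also express, made up most of the sum at 40.0 to 89.2 CPM, with Sox10 at or under 0.524 CPM. In such bulk samples a lower level of a gene in every cell and fewer cells that express it cannot be told apart.

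**Figure D1:**
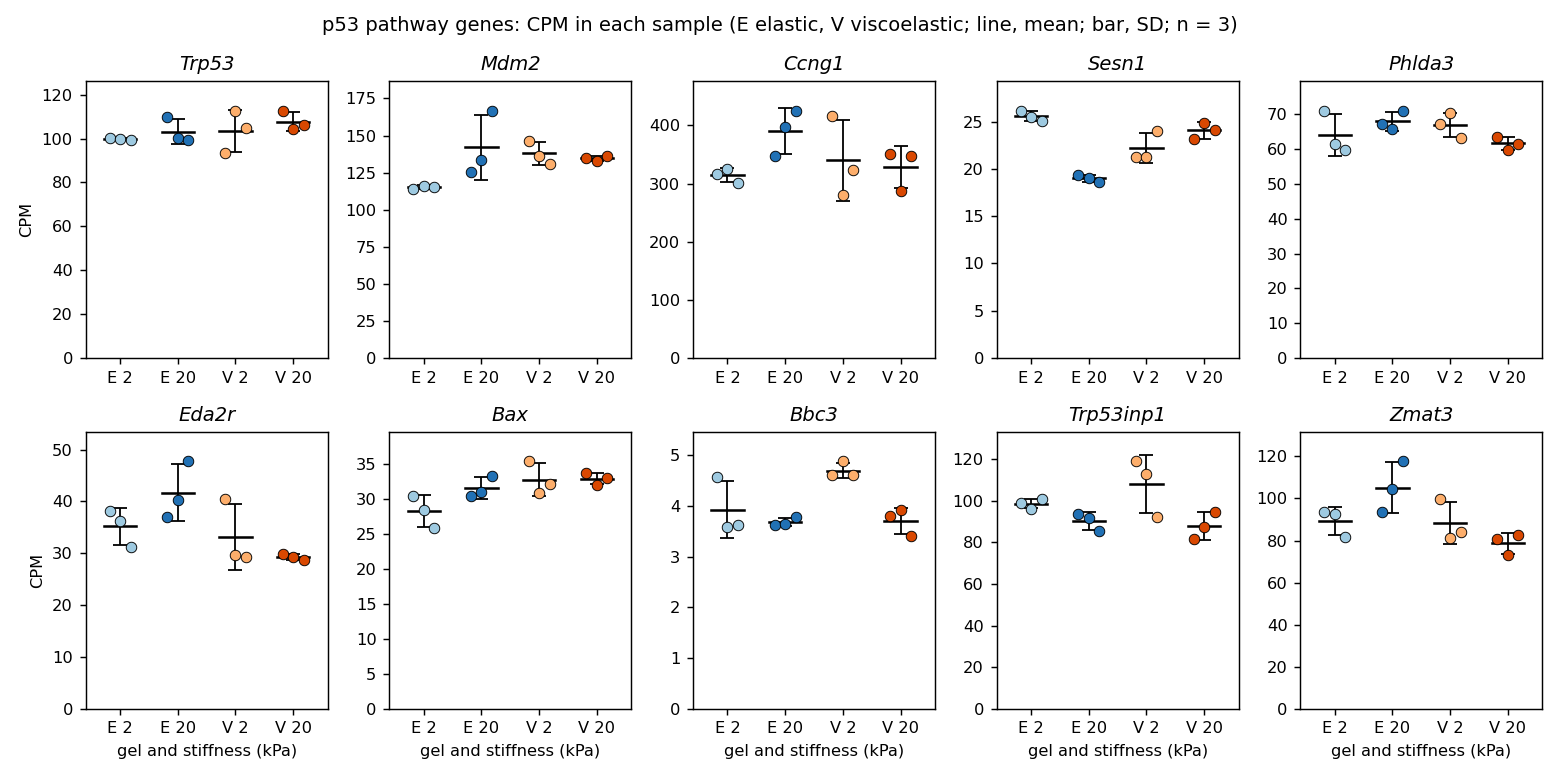
CPM of each p53 pathway gene (vertical axis, from 0) in the 12 samples, by gel type (E elastic, V viscoelastic) and stiffness in kPa (horizontal axis); points are samples, lines are means and bars are SD (n = 3). Sesn1 was lowest on 20 kPa Elastic gels at 18.6 to 19.4 CPM, whereas Trp53 spanned 93.5 to 113 CPM with overlapping groups.

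Per kilobase of exon, the genes fell into a wide order of levels. Ccng1 was highest at a mean of 97.7 CPM per kb over the 12 samples, followed by Phlda3 at 41.8 CPM per kb, Mdm2 at 26.1 CPM per kb and Trp53 at 25.6 CPM per kb. Bax stood at 19.9 CPM per kb, Trp53inp1 at 14.9 CPM per kb, Zmat3 at 7.90 CPM per kb, Eda2r at 5.91 CPM per kb and Sesn1 at 5.70 CPM per kb. Bbc3 was lowest at 1.88 CPM per kb. Neighbours in this order whose 12 samples overlapped were Mdm2 and Trp53, Bax and Trp53inp1, Zmat3 and Eda2r, and Eda2r and Sesn1, while all other neighbours were apart in every sample.

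The comparisons of gel type at each stiffness and of stiffness on each gel type, and their interaction, were tested with edgeR's quasi-likelihood test, with Benjamini-Hochberg adjustment over all 14542 genes, and a gene was called at an adjusted p under 0.05. At 2 kPa, 3 of 10 genes were called between viscoelastic and elastic gels, against 19.9% of all tested genes. Mdm2 and Bax were higher and Sesn1 was lower on viscoelastic gels, against 8.77% of all genes called higher and 11.1% called lower. Scaled by total counts alone, those shares became 11.5% and 8.65%. The samples of the 2 groups did not overlap for 4 genes, the 3 called ones and Bbc3, against 36.3% of all genes. The median log2 fold change of the 10 genes was 0.09, and that of all tested genes was within 0.01 of 0.

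At 20 kPa, 3 of 10 genes were called between viscoelastic and elastic gels, against 33.5% of all genes. Sesn1 was higher on viscoelastic gels, where 17.4% of all genes were called higher, and Eda2r and Zmat3 were lower, where 16.1% were called lower. Groups did not overlap for these 3 genes and for Phlda3, against 49.9% of all genes. The median of the 10 genes was −0.06 on the log2 scale.

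With stiffness on elastic gels, 2 of 10 genes were called, against 14.0% of all genes. Mdm2 was higher at 20 than at 2 kPa, where 6.81% of all genes were called higher, and Sesn1 was lower, where 7.14% were called lower. Groups did not overlap for Mdm2, Ccng1, Sesn1 and Trp53inp1, against 35.6% of all genes, and the median of the 10 genes was 0.12 on the log2 scale. With stiffness on viscoelastic gels, edgeR called 0 of 10 genes, against 2.28% of all genes, of which 1.58% were higher and 0.695% lower at 20 kPa. Of the 10 genes, 2 (Bbc3 and Trp53inp1) had an unadjusted p under 0.05, DESeq2 called 1 of them, Trp53inp1, and groups did not overlap for Bbc3 alone, against 22.3% of all genes. The change of the stiffness response between gel types was called for 1 gene, Sesn1, against 7.56% of all genes, of which 4.45% had a positive and 3.12% a negative interaction. Read against these backgrounds, the counts of called genes say nothing particular about the 10 genes as a set. These comparisons share groups of samples with each other, so their calls are given side by side and are not independent of one another.

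**Figure D2:**
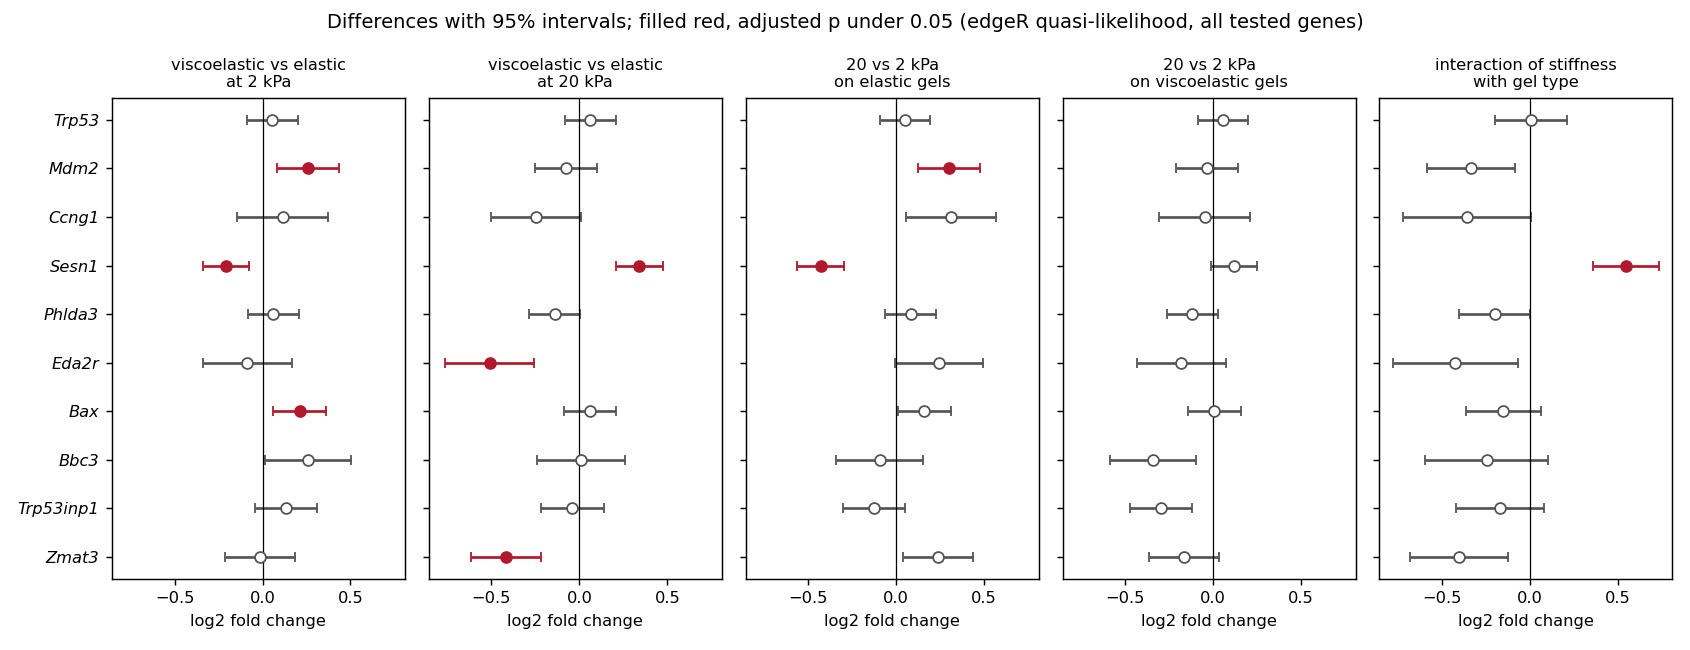
Log2 fold change (horizontal axis) of each p53 pathway gene with its 95% interval in the 4 comparisons and the interaction; filled red points passed an adjusted p of 0.05. Sesn1 changed in opposite directions with gel type at 2 kPa (−0.21) and 20 kPa (0.34), and no gene passed with stiffness on viscoelastic gels.

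Trp53 (ENSMUSG00000059552, chromosome 11, 69580359 to 69591873, plus strand, mm10) encodes p53 itself. On elastic gels its level was 100.2, 99.7 and 99.3 CPM at 2 kPa and 109.9, 100.3 and 99.4 CPM at 20 kPa in replicates 1 to 3, the order used for every gene here. On viscoelastic gels Trp53 measured 93.5, 112 and 105 CPM at 2 kPa and 113, 104 and 106 CPM at 20 kPa. The groups overlapped in every comparison made, and the highest group mean, 108 ± 4.40 CPM on 20 kPa Viscoelastic gels, was close to the lowest, 99.7 ± 0.435 CPM on 2 kPa Elastic gels (SD, n = 3). The log2 difference between gel types was 0.06 at 2 kPa (95% interval −0.09 to 0.20, adjusted p = 0.604, edgeR) and 0.06 at 20 kPa (−0.08 to 0.21, adjusted p = 0.510). With stiffness it was 0.05 on elastic gels (−0.09 to 0.19, adjusted p = 0.683) and 0.06 on viscoelastic gels (−0.09 to 0.20, adjusted p = 0.699). None of these 4 intervals extended beyond −0.09 or 0.21. The annotation holds a processed pseudogene, Trp53-ps, and how reads shared with it were counted is not given in the sources used here.

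Mdm2 (ENSMUSG00000020184, chromosome 10, 117688875 to 117710758, minus strand) encodes the ubiquitin ligase that marks p53 for degradation. On elastic gels Mdm2 measured 114, 116 and 116 CPM at 2 kPa and 126, 133 and 167 CPM at 20 kPa. On viscoelastic gels Mdm2 measured 146, 136 and 131 CPM at 2 kPa and 135, 133 and 136 CPM at 20 kPa. The 3 samples of 2 kPa Elastic were the lowest of all 12, and the third 20 kPa Elastic sample was the highest. At 2 kPa viscoelastic gels had more Mdm2 than elastic gels, by 0.26 ± 0.08 on the log2 scale (SE, adjusted p = 0.0409, edgeR) and elastic gels had more at 20 than at 2 kPa, by 0.30 ± 0.08 (adjusted p = 0.0267). At 20 kPa the gel types differed by −0.08 (95% interval −0.25 to 0.10, adjusted p = 0.515), and stiffness on viscoelastic gels gave −0.03 (−0.21 to 0.14, adjusted p = 0.866). The interaction of −0.33 ± 0.12 did not pass (adjusted p = 0.102), though it did in 2 of 20 alternatives (adjusted p = 0.0317 at the lowest). Without the third 20 kPa Elastic sample, the stiffness difference on elastic gels was 0.17 (adjusted p = 0.125), and it also lost its call without any one 2 kPa Elastic sample (0.29 to 0.31, adjusted p 0.0698 to 0.0859). The call at 2 kPa was lost without any one of the 6 samples compared (0.21 to 0.29, adjusted p 0.0538 to 0.121) and without the first or the third 20 kPa Viscoelastic sample (0.26, adjusted p = 0.0533 and 0.0559).

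Ccng1 (ENSMUSG00000020326, chromosome 11, 40748552 to 40755311, minus strand) encodes cyclin G1, a p53 target that recruits a phosphatase to Mdm2. On elastic gels Ccng1 measured 316, 325 and 301 CPM at 2 kPa and 347, 398 and 425 CPM at 20 kPa. On viscoelastic gels Ccng1 measured 416, 281 and 323 CPM at 2 kPa and 352, 287 and 348 CPM at 20 kPa. The elastic groups did not overlap, and the first 2 kPa Viscoelastic sample stood well above the others of its group. None of the differences passed the test. With stiffness on elastic gels it was 0.31 (95% interval 0.05 to 0.57, adjusted p = 0.102, edgeR), and between gel types at 20 kPa it was −0.25 (−0.50 to 0.01, adjusted p = 0.130). At 2 kPa the gel types differed by 0.11 (−0.14 to 0.37, adjusted p = 0.544), and on viscoelastic gels stiffness gave −0.05 (−0.31 to 0.21, adjusted p = 0.869). Without the first 2 kPa Viscoelastic sample, the 20 kPa difference and the elastic stiffness difference passed (adjusted p = 0.0486 and 0.0324), as they did with every gene that had a count included (adjusted p = 0.0440 and 0.0166). The elastic difference also passed without the second 2 kPa Viscoelastic sample (0.32, adjusted p = 0.0419) and among the 6 elastic samples alone (0.32, adjusted p = 0.0142).

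Sesn1 (ENSMUSG00000038332, chromosome 10, 41809935 to 41908424, plus strand) encodes sestrin 1, an inhibitor of mTORC1 signalling induced by p53. On elastic gels Sesn1 measured 26.1, 25.5 and 25.1 CPM at 2 kPa and 19.4, 19.0 and 18.6 CPM at 20 kPa. On viscoelastic gels Sesn1 measured 21.3, 21.3 and 24.0 CPM at 2 kPa and 23.2, 24.9 and 24.1 CPM at 20 kPa. All 3 samples of 20 kPa Elastic were below every other sample, and all 3 of 2 kPa Elastic were above every other sample. On elastic gels Sesn1 was lower at 20 than at 2 kPa by a log2 fold change of −0.43 ± 0.06 (SE, adjusted p = 0.000495, edgeR), a level 0.743 times that at 2 kPa. On viscoelastic gels stiffness gave 0.12 (95% interval −0.01 to 0.25, adjusted p = 0.327). Between gel types Sesn1 was lower on viscoelastic gels at 2 kPa (−0.21 ± 0.06, adjusted p = 0.0294) and higher at 20 kPa (0.34 ± 0.06, adjusted p = 0.00101). The interaction was 0.55 ± 0.09 (adjusted p = 0.00162), so the stiffness response differed between elastic and viscoelastic gels. The calls on elastic gels, at 20 kPa and of the interaction were kept in all alternatives run, with values of −0.44 to −0.41, 0.31 to 0.38 and 0.48 to 0.61. The call at 2 kPa was lost in 8 of 21 alternatives. It was lost without the first or second sample of either gel type (−0.21 to −0.16, adjusted p 0.0759 to 0.106) and when scaled by total counts alone (−0.17, adjusted p = 0.0976). The same held with every gene that had a count (−0.20, adjusted p = 0.0797), among the 6 samples alone (−0.20, adjusted p = 0.0887) and at an adjusted p of 0.01.

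Phlda3 (ENSMUSG00000041801, chromosome 1, 135766119 to 135769136, plus strand) encodes a small lipid-binding protein that competes with Akt at the membrane. On elastic gels Phlda3 measured 71.0, 61.5 and 59.7 CPM at 2 kPa and 67.1, 65.7 and 70.8 CPM at 20 kPa. On viscoelastic gels Phlda3 measured 67.2, 70.2 and 63.2 CPM at 2 kPa and 63.4, 59.8 and 61.5 CPM at 20 kPa. The 2 groups at 20 kPa did not overlap, with all viscoelastic samples below the elastic ones, but the difference of −0.14 (95% interval −0.28 to 0.00, adjusted p = 0.122, edgeR) did not pass. It passed when the trend with gene length was removed (−0.29, adjusted p = 0.00622) and when the trend with GC content was removed (−0.18, adjusted p = 0.0378). The other differences were 0.06 between gel types at 2 kPa (adjusted p = 0.565), 0.08 with stiffness on elastic gels (adjusted p = 0.457) and −0.12 with stiffness on viscoelastic gels (adjusted p = 0.364). With the GC trend removed, the elastic difference was 0.21 (adjusted p = 0.0423) and the interaction −0.32 (adjusted p = 0.0449), and both passed.

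Eda2r (ENSMUSG00000034457, chromosome X, 97333840 to 97377216, minus strand) encodes the receptor of ectodysplasin A2, a member of the TNF receptor family. On elastic gels Eda2r measured 38.1, 36.2 and 31.2 CPM at 2 kPa and 37.0, 40.3 and 47.7 CPM at 20 kPa. On viscoelastic gels Eda2r measured 40.5, 29.7 and 29.3 CPM at 2 kPa and 29.8, 29.2 and 28.8 CPM at 20 kPa. The 20 kPa Viscoelastic samples lay close together and below every elastic sample, while the first 2 kPa Viscoelastic sample lay among the elastic ones. At 20 kPa the viscoelastic gels had less Eda2r, by −0.51 ± 0.12 on the log2 scale (SE, adjusted p = 0.00452, edgeR), a level 0.703 times that on elastic gels. At 2 kPa the difference was −0.09 (95% interval −0.34 to 0.17, adjusted p = 0.651). Stiffness gave 0.24 on elastic gels (−0.01 to 0.49, adjusted p = 0.187) and −0.18 on viscoelastic gels (−0.43 to 0.07, adjusted p = 0.441), and the interaction was −0.42 ± 0.17 (adjusted p = 0.142), which passed with every gene that had a count (−0.43, adjusted p = 0.0268). The call at 20 kPa was kept in all 21 alternatives, and without the third 20 kPa Elastic sample the difference was −0.40 (adjusted p = 0.0290).

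Bax (ENSMUSG00000003873, chromosome 7, 45461697 to 45466898, minus strand) encodes the protein that permeabilises the outer mitochondrial membrane in apoptosis. On elastic gels Bax measured 30.4, 28.5 and 25.9 CPM at 2 kPa and 30.4, 31.0 and 33.3 CPM at 20 kPa. On viscoelastic gels Bax measured 35.4, 30.8 and 32.1 CPM at 2 kPa and 33.7, 32.0 and 33.1 CPM at 20 kPa. At 2 kPa every viscoelastic sample was above every elastic one, with 30.8 against 30.4 CPM at the border. The difference at 2 kPa was 0.21 ± 0.07 on the log2 scale (SE, adjusted p = 0.0456, edgeR). This call was lost in 12 of 21 alternatives, among them removal of the gene length trend (0.12, adjusted p = 0.319) and omission of the third 2 kPa Elastic (0.15, adjusted p = 0.160) or the first 2 kPa Viscoelastic sample (0.15, adjusted p = 0.143). At 20 kPa the gel types differed by 0.06 (95% interval −0.09 to 0.21, adjusted p = 0.532). Stiffness gave 0.16 on elastic gels (0.01 to 0.31, adjusted p = 0.152) and 0.01 on viscoelastic gels (−0.14 to 0.16, adjusted p = 0.971), and the former passed with the GC trend removed (0.27, adjusted p = 0.0405). In the annotation 192 bases of Bax exons, 12.2% of their length, overlap the gene Gm45808 on the same strand, which is not among the genes of the count table.

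Bbc3 (ENSMUSG00000002083, chromosome 7, 16308393 to 16318205, plus strand) encodes PUMA, a BH3-only protein that activates Bax and neutralises its inhibitors. It was the gene with the fewest reads, 132 to 203 counts per sample. On elastic gels Bbc3 measured 4.57, 3.58 and 3.62 CPM at 2 kPa and 3.62, 3.65 and 3.77 CPM at 20 kPa. On viscoelastic gels Bbc3 measured 4.60, 4.87 and 4.61 CPM at 2 kPa and 3.79, 3.91 and 3.41 CPM at 20 kPa. The 2 kPa Viscoelastic samples were the highest of all 12, but the first 2 kPa Elastic sample came close to them, at 4.57 against 4.60 CPM. Neither the difference between gel types at 2 kPa (0.26, 95% interval 0.01 to 0.50, adjusted p = 0.128, edgeR) nor that with stiffness on viscoelastic gels (−0.34, −0.59 to −0.10, adjusted p = 0.122) passed. Without the first 2 kPa Elastic sample the former did (0.38, adjusted p = 0.0482), as it did with the GC trend removed (0.35, adjusted p = 0.0309). At 20 kPa the gel types differed by 0.01 (adjusted p = 0.955), and stiffness on elastic gels gave −0.10 (adjusted p = 0.645).

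Trp53inp1 (ENSMUSG00000028211, chromosome 4, 11156431 to 11174379, plus strand) encodes a p53-induced nuclear protein with roles in apoptosis and autophagy. On elastic gels Trp53inp1 measured 99.0, 96.3 and 101 CPM at 2 kPa and 93.8, 91.6 and 85.7 CPM at 20 kPa. On viscoelastic gels Trp53inp1 measured 119, 113 and 92.4 CPM at 2 kPa and 81.4, 87.6 and 94.8 CPM at 20 kPa. The elastic groups did not overlap, whereas the viscoelastic ones did, through the third sample of each. With stiffness on viscoelastic gels the difference was −0.30 ± 0.08 (SE, adjusted p = 0.0681, edgeR), the closest to a call in that comparison. It passed with DESeq2 (−0.31, adjusted p = 0.0202), without the third 2 kPa Viscoelastic sample (−0.40, adjusted p = 0.0275), with every gene that had a count included (−0.31, adjusted p = 0.0136) and with the GC trend removed (−0.30, adjusted p = 0.0364). With stiffness on elastic gels it was −0.13 (adjusted p = 0.344), and the interaction was −0.17 (adjusted p = 0.427). Between gel types it was 0.13 at 2 kPa (adjusted p = 0.277) and −0.04 at 20 kPa (adjusted p = 0.747). Without the third 2 kPa Viscoelastic sample, the 2 kPa difference was 0.23 and passed (adjusted p = 0.0424).

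Zmat3 (ENSMUSG00000027663, chromosome 3, 32334792 to 32366014, minus strand) encodes an RNA-binding zinc finger protein that acts in splicing and RNA stability downstream of p53. On elastic gels Zmat3 measured 93.5, 92.4 and 81.5 CPM at 2 kPa and 93.5, 104 and 118 CPM at 20 kPa. On viscoelastic gels Zmat3 measured 99.9, 81.3 and 83.9 CPM at 2 kPa and 80.5, 73.2 and 82.6 CPM at 20 kPa. The 20 kPa groups did not overlap, and the third 20 kPa Elastic and first 2 kPa Viscoelastic samples were the highest of their groups, as for Eda2r. At 20 kPa Zmat3 was lower on viscoelastic gels, by −0.42 ± 0.09 on the log2 scale (SE, adjusted p = 0.00350, edgeR), a level 0.749 times that on elastic gels. At 2 kPa the difference was −0.01 (95% interval −0.21 to 0.19, adjusted p = 0.939). Stiffness gave 0.24 on elastic gels (0.04 to 0.44, adjusted p = 0.103) and −0.17 on viscoelastic gels (−0.36 to 0.03, adjusted p = 0.357), and the interaction was −0.40 ± 0.13 (adjusted p = 0.0765), which passed in 5 of 20 alternatives (adjusted p = 0.0134 at the lowest). The elastic difference passed in 3 of 21 alternatives, with every gene that had a count (adjusted p = 0.0418), with the length trend removed (0.28, adjusted p = 0.0339) and without the first 20 kPa Elastic sample (0.32, adjusted p = 0.0379). The call at 20 kPa was kept in all 21 alternatives, and without the third 20 kPa Elastic sample the difference was −0.33 (adjusted p = 0.0229).

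Proliferation genes also differed between these groups, though not in the pattern of the called members. At 2 kPa their median log2 fold change was −0.32, where Mdm2 and Bax were higher on viscoelastic gels, and their interaction was called for 0 of 15 genes. Of 15 genes of the cell cycle machinery, 14 were called lower on viscoelastic gels at 20 kPa and 8 at 2 kPa, and 12 were called higher at 20 than at 2 kPa on elastic gels, with 0 called with stiffness on viscoelastic gels (median log2 fold change 0.08). Of all genes, 16.1% were called lower at 20 kPa, 11.1% lower at 2 kPa and 6.81% higher on elastic gels. Their summed level was 1492 to 1586 CPM on 2 kPa Elastic, 1842 to 2103 CPM on 20 kPa Elastic, 1154 to 1270 CPM on 2 kPa Viscoelastic and 1045 to 1352 CPM on 20 kPa Viscoelastic gels. Examples were the kinetochore kinase Bub1 at 20 kPa (−0.84 ± 0.11, SE, adjusted p = 0.000130, edgeR), the helicase subunit Mcm5 at 2 kPa (−0.48 ± 0.08, adjusted p = 0.00147) and Cdc20, an activator of the anaphase-promoting complex, with stiffness on elastic gels (0.42 ± 0.08, adjusted p = 0.00267). For proliferation itself, the study scored the share of cells labelled by EdU at 48 h. In its account viscoelasticity raised that share at 2 kPa and did not change it significantly at 20 kPa. Among elastic gels the share rose with stiffness. The labelling at 2 kPa thus ran opposite to the RNA of these 15 genes, and the reason was not tested. Cnmd, a chondrocyte gene, was higher on viscoelastic gels at 20 kPa (0.94 ± 0.15, adjusted p = 0.000384), and S100b followed at 0.94 ± 0.09 (adjusted p = 7.50e-05). Each was the only called gene of the 4 tested in its list, the chondrocyte and the Schwann cell markers, where 17.4% of all genes were called higher. At 2 kPa 1 of 4 genes of each list was called lower on viscoelastic gels, where 11.1% of all genes were called lower. The list medians there were 0.01 for the chondrocyte and −0.02 for the Schwann cell markers on the log2 scale. The summed Schwann cell list there was 74.5 to 75.7 CPM on elastic and 52.4 to 62.5 CPM on viscoelastic gels. These values stand beside the differences of Sesn1, Mdm2, Eda2r and Zmat3, and their part in those differences was not tested.

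**Figure D3:**
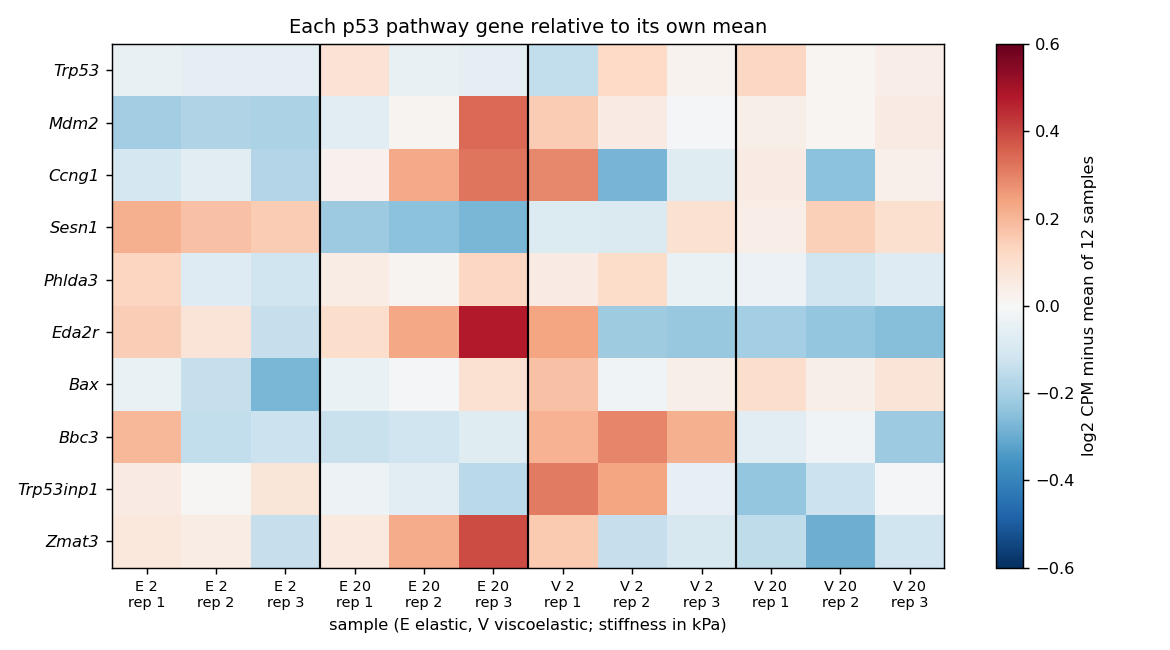
Log2 CPM of each gene minus its mean over the 12 samples (colour, from −0.6 to 0.6) by sample, ordered by group. The third 20 kPa Elastic sample was the highest of its group for 7 of 10 genes, and Sesn1 ran opposite to most other targets there.

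Across the 12 samples the genes did not share 1 pattern. Pearson's r of log2 CPM was highest for Eda2r and Zmat3 at 0.958, followed by Ccng1 and Zmat3 at 0.821. Mdm2 and Bax were closest to each other at 0.745, and Bbc3 and Trp53inp1 at 0.557. Phlda3 was closest to Zmat3 at 0.626. Sesn1 had no close member, with 0.07 to Bbc3 as its highest and −0.67 to Mdm2 as its lowest value. Trp53 had none either, its highest value being 0.05 to Bax. These values mix differences between groups with differences between samples of a group, the points share libraries and scaling, and they are given as a description with n = 12. Among all other tested genes, the closest to Trp53 were Smarcb1 at 0.920, Samd1 at 0.863 and Plrg1 at 0.860. The closest to Mdm2 were Esd at 0.923, Ptp4a3 at 0.913 and the p53 target Pmaip1 at 0.911. With each group centred on its own mean, Mdm2, Ccng1, Eda2r, Bax and Zmat3 varied together, with r of 0.517 to 0.909 for their 10 pairs, and each of them had r of −0.71 to −0.52 to Trp53. This set of 5 was chosen after its values were seen. Sesn1 had within-group r of −0.46 to −0.12 to these 5 genes.

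Around these 10 genes, 70 others of the pathway were listed, of which 68 were tested (Trp73 and Sco2 were too low). The list was chosen with earlier results of these data known. Its shares beside those of all genes are therefore a description and not a test of the pathway. Between gel types, 20 of 68 (29.4%, beside 19.9% of all genes) were called at 2 kPa, 11 higher and 9 lower, and 31 of 68 (45.6%, beside 33.5%) at 20 kPa, 12 higher and 19 lower. With stiffness, 13 of 68 (19.1%, beside 14.0%) were called on elastic gels, 11 higher and 2 lower, and 2 of 68 (2.94%, beside 2.28%) on viscoelastic gels, 1 in each direction. The interaction was called for 7 of 68 (10.3%, beside 7.56%), 2 positive and 5 negative. The medians of the 68 were −0.01, −0.11, 0.08, 0.00 and −0.06 on the log2 scale in that order, beside all-gene medians within 0.02 of 0. Without the first 2 kPa Elastic sample, 11 of 68 were called at 2 kPa and 10.7% of all genes. Without the same sample, 7 were called with stiffness on elastic gels and 8.05% of all genes. Without the third 20 kPa Elastic sample, 19 were called at 20 kPa and 22.0% of all genes. With stiffness on viscoelastic gels DESeq2 called 8, and 6.12% of all genes it tested.

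**Figure D4:**
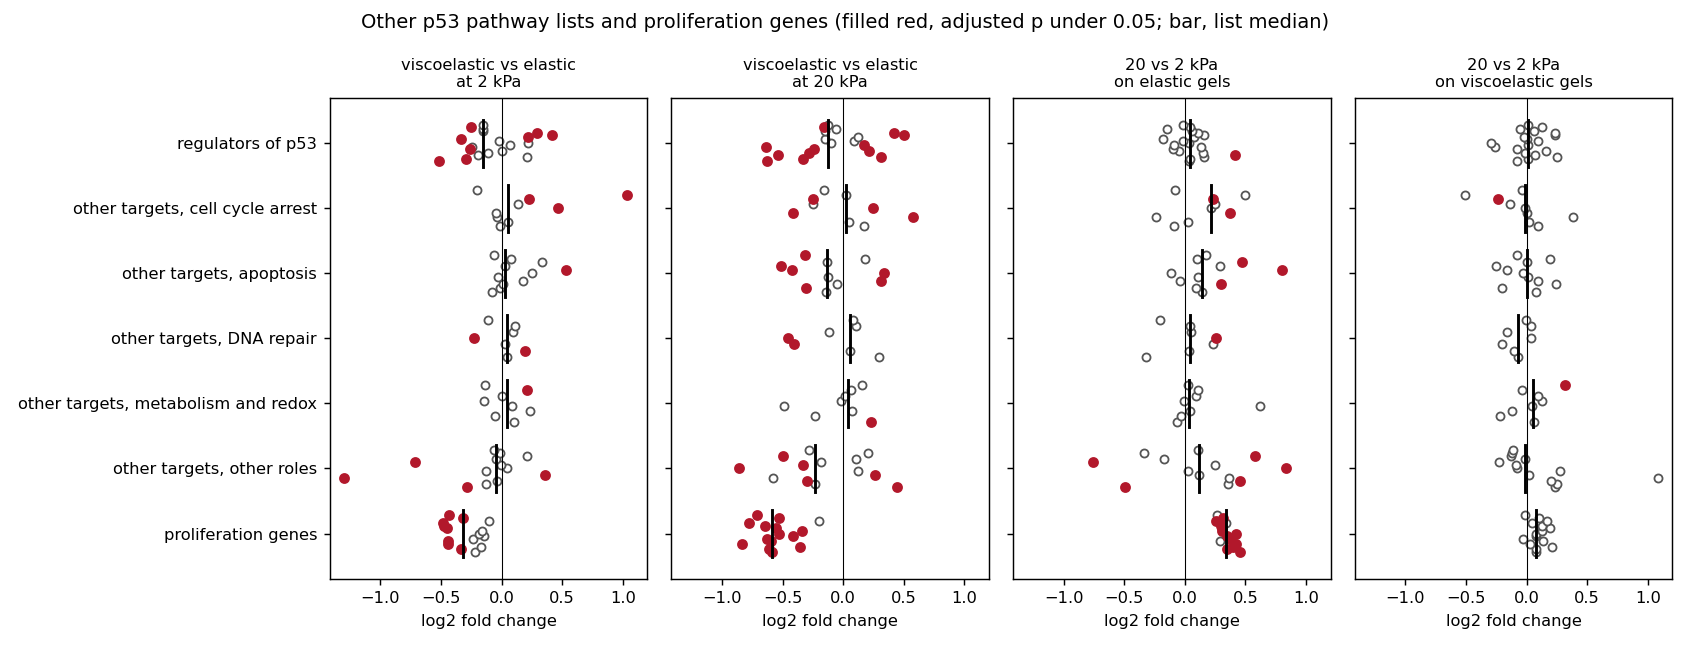
Log2 fold change (horizontal axis) of every tested gene of the other pathway lists and of the proliferation list in 4 comparisons; filled red points passed an adjusted p of 0.05 and black bars are list medians. The proliferation genes moved together (medians −0.32, −0.59, 0.34 and 0.08), whereas the p53 target lists held genes on both sides of 0.

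The cell cycle arrest list was led by its textbook member Cdkn1a, which encodes the kinase inhibitor p21. Cdkn1a lay between 165 and 210.0 CPM in the 12 samples, with group means from 184 to 194 CPM, and passed in none of the comparisons. Its log2 fold changes were 0.05, 0.05, 0.02 and 0.02 with adjusted p of 0.722, 0.696, 0.894 and 0.925 (edgeR). Of all genes, 8.77% were called higher at 2 kPa, 17.4% higher and 16.1% lower at 20 kPa, 6.81% higher with stiffness on elastic gels and 0.695% lower with stiffness on viscoelastic gels. Of the 9 genes of this list, 3 were called higher at 2 kPa on viscoelastic gels, namely Rprm, a mediator of G2 arrest (1.03 ± 0.20, SE, 0.581 against 1.19 CPM), the polo-like kinase Plk2 (0.47 ± 0.08) and Psrc1, which binds microtubules (0.23 ± 0.05). At 20 kPa 2 were higher and 2 lower, among them Plk2 (0.24 ± 0.08) on the higher and Psrc1 (−0.25 ± 0.05) and Gtse1, a microtubule-associated protein of G2 that restrains p53 (−0.41 ± 0.09), on the lower side. With stiffness on elastic gels Gtse1 (0.37 ± 0.09) and Psrc1 (0.24 ± 0.05) were higher, and on viscoelastic gels Psrc1 was lower (−0.24 ± 0.05, adjusted p = 0.0370). The interactions of Psrc1 (−0.47 ± 0.08, adjusted p = 0.00173) and Rprm (−1.01 ± 0.27, adjusted p = 0.0371) were called. Plk2 lost its 20 kPa call without the second (0.18, adjusted p = 0.114) or the third 20 kPa Elastic or the second 20 kPa Viscoelastic sample. Gtse1 lost its call on elastic gels without the third 20 kPa Elastic (0.31, adjusted p = 0.0736) or the first or the third 2 kPa Elastic sample. Psrc1 lost its call on elastic gels without the second 2 kPa Elastic sample (0.21, adjusted p = 0.0522) and the one on viscoelastic gels in 10 alternatives (adjusted p up to 0.153). Rprm lost its interaction in 13 alternatives (adjusted p up to 0.0954).

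Of 11 apoptosis targets, 1 was called higher at 2 kPa, 2 higher and 4 lower at 20 kPa, and 3 higher with stiffness on elastic gels, while 0 were called on viscoelastic gels. Beside these counts, 8.77% of all genes were called higher at 2 kPa, 17.4% higher and 16.1% lower at 20 kPa, and 6.81% higher on elastic gels, and the list medians in these comparisons were 0.03, −0.14 and 0.14. Perp, a membrane protein of desmosomes and an apoptosis effector, was higher on viscoelastic gels at 2 kPa (0.53 ± 0.13, adjusted p = 0.00842, edgeR) and lower there at 20 kPa (−0.43, adjusted p = 0.0155). It was higher with stiffness on elastic gels (0.80 ± 0.12, adjusted p = 0.000871), with an interaction of −0.96 ± 0.18 (adjusted p = 0.00391). On elastic gels its group mean was 24.3 CPM at 2 kPa and 42.2 CPM at 20 kPa. Pmaip1, the BH3-only protein Noxa, was higher at 20 kPa on elastic gels (0.47 ± 0.11, adjusted p = 0.0133), as was Bid (0.30 ± 0.08, adjusted p = 0.0266). Both lost the call without the third 20 kPa Elastic sample (0.36 and 0.23, adjusted p = 0.0745 and 0.130), and also without the first 2 kPa Elastic sample, and that of Bid in addition without the third 2 kPa Elastic or the second 20 kPa Elastic sample. At 20 kPa the death receptor gene Tnfrsf10b (−0.32 ± 0.07, adjusted p = 0.00223) and Pidd1, a scaffold for caspase 2 (−0.51 ± 0.12, adjusted p = 0.00549), were lower on viscoelastic gels, and the caspase gene Casp6 was higher (0.31 ± 0.06, adjusted p = 0.00178).

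Of 7 DNA repair targets, 1 was called higher and 1 lower at 2 kPa, 2 lower at 20 kPa and 1 higher with stiffness on elastic gels. The shares of all genes were 8.77% and 11.1% at 2 kPa, 16.1% lower at 20 kPa and 6.81% higher on elastic gels. Polh, a translesion DNA polymerase, was lower on viscoelastic gels at 20 kPa (−0.45 ± 0.07, adjusted p = 0.000344, edgeR) and at 2 kPa (−0.23 ± 0.07, adjusted p = 0.0337), and higher with stiffness on elastic gels (0.26 ± 0.07, adjusted p = 0.0241). At 20 kPa its group mean was 44.5 CPM for elastic and 32.5 CPM for viscoelastic gels. The Polh call at 2 kPa was lost in 8 alternatives (adjusted p up to 0.132 without the second 2 kPa Elastic sample) and the one on elastic gels in 4 (adjusted p up to 0.104 without the third 2 kPa Elastic sample). Fancc of the Fanconi anaemia complex was lower at 20 kPa (−0.41 ± 0.10), and Ercc5, an endonuclease of nucleotide excision repair, was higher at 2 kPa (0.20 ± 0.05, adjusted p = 0.0192, lost without any one 2 kPa Elastic sample, up to 0.0576). Of 8 tested metabolic targets, 1 was called higher between gel types at 2 kPa, 1 at 20 kPa and 1 with stiffness on viscoelastic gels, where 8.77%, 17.4% and 1.58% of all genes were called higher. The sestrin gene Sesn2 was higher at 2 kPa (0.21 ± 0.07, adjusted p = 0.0451, lost in 11 alternatives with up to 0.156). Ak1, an adenylate kinase, was higher on viscoelastic gels at 20 kPa (0.23 ± 0.06), but not with the length trend removed (0.13, adjusted p = 0.162). Tigar, a fructose bisphosphatase, was higher with stiffness on viscoelastic gels (0.32 ± 0.07, adjusted p = 0.0362, lost in 11 alternatives with up to 0.127).

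Among 13 targets with other roles, 1 was higher and 3 were lower at 2 kPa, 2 were higher and 4 lower at 20 kPa, and 3 were higher and 2 lower with stiffness on elastic gels. The shares of all genes called higher and lower were 8.77% and 11.1% at 2 kPa, 17.4% and 16.1% at 20 kPa, and 6.81% and 7.14% on elastic gels. Ddit4l, an inhibitor of mTORC1 signalling, was lower on viscoelastic gels at 2 kPa (−0.29 ± 0.06, adjusted p = 0.00585, edgeR) and higher at 20 kPa (0.45 ± 0.06, adjusted p = 0.000214). It was lower with stiffness on elastic gels (−0.50 ± 0.06, adjusted p = 0.000229), and its interaction was 0.73 ± 0.09 (adjusted p = 0.000273). These are the directions that Sesn1 took in the same comparisons. Steap3, an endosomal ferrireductase, fell from 397 CPM on 2 kPa Elastic to 235 CPM on 20 kPa Elastic (−0.76 ± 0.07, adjusted p = 3.44e-05) and to 242 CPM on 2 kPa Viscoelastic gels (−0.71 ± 0.07, adjusted p = 3.33e-05). Thbs1, which encodes the matrix protein thrombospondin 1, was higher with stiffness on elastic gels (0.58 ± 0.11, adjusted p = 0.00275) and lower on viscoelastic gels at 20 kPa (−0.50 ± 0.11, adjusted p = 0.00296). The cytokine gene Lif was lower on viscoelastic gels at 2 kPa (−1.30 ± 0.28, adjusted p = 0.00559).

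Upstream of p53, 19 regulators were tested. Between gel types 3 were called higher and 5 lower at 2 kPa, and 5 higher and 7 lower at 20 kPa. Of all genes, 8.77% were higher and 11.1% lower at 2 kPa, and 17.4% higher and 16.1% lower at 20 kPa. With stiffness 1 was higher on elastic gels and 0 were called on viscoelastic gels, where the list median was 0.01 (all genes, 6.81% higher and 2.28% called in the same order). Rpl5 and Rpl11, ribosomal proteins that can bind Mdm2, were higher on viscoelastic gels at 2 kPa (0.29 ± 0.07 and 0.41 ± 0.06, SE, adjusted p = 0.00808 and 0.000632, edgeR) and at 20 kPa (0.42 ± 0.07 and 0.50 ± 0.06, adjusted p = 0.000437 and 0.000137). Both have processed copies in the genome, so their counts are uncertain where reads were shared. Usp10, a deubiquitinase of p53, was lower on viscoelastic gels at 2 kPa (−0.25 ± 0.05, adjusted p = 0.00388). The checkpoint kinase gene Chek1 was lower on viscoelastic gels at 20 kPa (−0.54 ± 0.10, adjusted p = 0.00104) and higher with stiffness on elastic gels (0.41 ± 0.10, adjusted p = 0.0129, lost without the first 2 kPa Elastic sample at 0.38, adjusted p = 0.0591, and without the third 20 kPa Elastic sample). Trp63, the tested relative of Trp53, was higher on viscoelastic gels at 2 kPa (0.52 ± 0.10, adjusted p = 0.00302) and with stiffness on elastic gels (0.41 ± 0.10, adjusted p = 0.0149, lost without the first 2 kPa Elastic sample at 0.32, adjusted p = 0.0783, and without the second 20 kPa Elastic sample).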

How the data were processed

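RNA was measured in 12 samples in 4 groups of 3. The authors trimmed reads with Trimmomatic, aligned them to mm10 with STAR and counted them per gene with featureCounts, and deposited raw counts in 1 table. The annotation release, strand setting and handling of multi-mapping reads are not given in the sources used here. From these counts, genes were kept with filterByExpr (minimum count 10, minimum total 15), scaled by TMM and fitted over all 12 samples with edgeR 4.0.16 (R 4.3.3), glmQLFit and glmQLFTest, with Benjamini-Hochberg adjustment over 14542 genes. The study's own tool, DESeq2 (1.42.0 here), was an alternative, as were other scalings, no filter, removal of length and GC trends, the replicate block, the 6 compared samples alone, an adjusted p of 0.01 and omission of each sample. The adjusted p of 0.01 was applied to the 10 members and not to the singly named other genes. CPM per kb used exon lengths from GENCODE M21 (GRCm38), matched by symbol for 29208 of 33246 genes. The members and lists were chosen with earlier results of these data known. All 10 members are named, and of the other lists Cdkn1a and up to 3 called genes with the lowest adjusted p per list and comparison. The values of 1 gene that this rule names are not reported here. The study calls the 3 samples of a group biological replicates, but the labels do not say whether they came from separate mice or cultures. The p-values therefore judge differences against the variation among these samples only, estimated over all 12 together. Squared differences between replicate pairs averaged 11.2 to 55.5 times those of counting noise, and the biological coefficient of variation was 7.5%. Simulated data with known changes were used to test the fit. The total per sample was 36626221 to 43612804 counts. Deviations of samples with the same replicate number correlated at −0.160 to 0.0505 in the comparisons that involve an elastic group. Between the 2 viscoelastic groups they correlated at 0.0483 to 0.308. Whether the numbers mark shared cultures was not tested.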

Additional observations from a re-analysis of the deposited data

Results flagged for a closer look

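Of the pathway genes named here, 7 had a stiffness response that differed between viscoelastic and elastic gels, by the interaction in edgeR's quasi-likelihood test. On the log2 scale the interaction was 0.55 for Sesn1, −1.01 for Rprm, −0.47 for Psrc1, −0.96 for Perp, 0.73 for Ddit4l, 0.53 for Steap3 and −0.71 for Thbs1. That of Rprm was lost in 13 alternatives (adjusted p up to 0.0954), while those of the other 6 were kept in all alternatives run. The interaction was called for 1 of the 10 genes and for 7 of the 68 others (10.3%), not all of which are named. Of all 14542 genes 7.56% were called, so the count says nothing particular about the pathway. Groups of 3 samples are too small for a test of single outlying samples.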

How the results depend on the processing

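Of 1040 values of the 10 genes under alternatives, 932 kept their direction and their side of the threshold, 35 lost and 29 gained a call, and 44 changed sign. The count of called genes between gel types at 2 kPa was 1 with the replicate block, 1 with the 6 samples alone, 0 at an adjusted p of 0.01, and 0 to 3 leaving out 1 sample. With stiffness on elastic gels it was 4 with every gene with a count, 4 with the GC trend removed, 1 at an adjusted p of 0.01, and 1 to 3 leaving out 1 sample. On viscoelastic gels it was 1 with every gene, with the GC trend removed and with DESeq2, and 0 to 1 leaving out 1 sample. The interaction count was 4 with every gene, 2 with the length trend removed, 2 with the GC trend removed and 2 with DESeq2, and 1 to 3 leaving out 1 sample. The block on replicate number took the calls of Mdm2 (0.26, adjusted p = 0.0552) and Bax (0.21, adjusted p = 0.0557) at 2 kPa and no other call of the 10 genes. What the numbers mark is not given by the labels. The cause of these changes was not tested.

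Changes of sign touched only differences that were not called. With the length trend removed, Phlda3 at 2 kPa was −0.0322, Zmat3 at 2 kPa 0.0957, Bax at 20 kPa −0.0904, Bbc3 at 20 kPa −0.11, Trp53inp1 at 20 kPa 0.0154, Bax with stiffness on viscoelastic gels −0.0670, the Trp53 interaction −0.0223, and Cdkn1a −0.0059 at 20 kPa and −0.00031 with stiffness on viscoelastic gels. With the GC trend removed, Bbc3 was −0.13 at 20 kPa and 0.12 with stiffness on elastic gels, and the Trp53 interaction −0.0316. With DESeq2 size factors, Bbc3 at 20 kPa was −0.0032, Bax on viscoelastic gels −0.00082 and the Trp53 interaction −0.0114. With the DESeq2 test these were −0.0029, −0.00084 and −0.0114. With every gene, Bax on viscoelastic gels was −0.00028 and the Trp53 interaction −0.0033. Zmat3 at 2 kPa was 0.0249 scaled by total counts, and Bax on viscoelastic gels −0.0107 with 6 samples alone. Leaving out 1 sample gave, at 2 kPa, −0.0573 to 0.25 for Ccng1, −0.26 to 0.0013 for Eda2r, −0.11 to 0.0561 for Zmat3 and −0.0225 to 0.15 for Cdkn1a. At 20 kPa it gave −0.17 to 0.0558 for Mdm2, −0.0299 to 0.0653 for Bbc3, −0.0970 to 0.0130 for Trp53inp1 and −0.0097 to 0.14 for Cdkn1a. With stiffness on elastic gels it gave −0.16 to 0.0317 for Bbc3 and −0.0667 to 0.12 for Cdkn1a. On viscoelastic gels it gave −0.0128 to 0.0988 for Trp53, −0.0693 to 0.0098 for Mdm2, −0.19 to 0.12 for Ccng1, −0.0556 to 0.0656 for Bax and −0.0288 to 0.0630 for Cdkn1a. For the interaction it gave −0.0622 to 0.0453 for Trp53 and −0.0986 to 0.0883 for Cdkn1a. The alternatives other than the adjusted p of 0.01 were applied to the 62 values of singly named other genes, a choice made after seeing the data. Of 1233 recomputed values, 79 lost a call and 15 changed sign, the latter all of Cdkn1a. Depth limits Bbc3 most, with 132 to 203 counts per sample.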
